A study of Mus musculus with 18 samples.

Results

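Cell line 4711-18 is a murine small cell lung cancer (SCLC) line of the kind the study names Type D, and its response to p53 restoration was measured in 6 of the 18 RNA-sequencing libraries of the series. The libraries were chosen by cell line alone: 3 Control and 3 Restored cultures, paired by the sgRNA they carried. The other lines, 4711-1 and 4716-11, had 6 libraries each and the same 3 pairs. All lines were derived from tumours of mice with floxed Rb1 and Rbl2, the XTR allele on both copies of Trp53 and a FlpO-ER gene at Rosa26. Ad:CMV-Cre had deleted Rb1 and Rbl2 and turned the XTR alleles into a gene trap that silences Trp53. Control cultures received vehicle, and Restored cultures received 500 nM 4-OHT, which switches on FlpO-ER so that the trap is removed. RNA was taken after 72 h. The 3 cultures of each state had been selected for LentiCRISPRv2 with an sgRNA against β-Gal (sgBgal), with sgPpia#3.2 or with sgPpia#4.1, the last 2 directed at Ppia, the gene of cyclophilin A. The line comes from a single tumour, so its 3 pairs are cultures of 1 line that differ in sgRNA. The p-values rest on a spread pooled over the 9 pairs of the 3 lines. They measure neither the spread within 4711-18 alone nor that between tumours. Exposure to 4-OHT and restoration of p53 cannot be told apart, since every Restored culture had both.

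The p53 protein is a transcription factor that binds response elements near its target genes. Cdkn1a is the target through which it halts the cell cycle, Mdm2 encodes the ligase that degrades it, and Bbc3, Bax and death receptor genes are targets linked to cell death. Many mitotic genes fall when p53 is active, because p21, the product of Cdkn1a, leads to their repression by RB family complexes. In SCLC both p53 and RB are usually lost, and the tumours are most often neuroendocrine.

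Values are TPM, transcript abundances scaled to the same total in every library, as the authors deposited them, so absolute depth is unknown. By the commonest ratio between low values, the libraries of 4711-18 were 1.03 to 1.31 times as deep as the shallowest of the series. Their median of 1.13 was lower than that of 4711-1 (1.565) and of 4716-11 (1.515). Tests were made with limma on log2(TPM + 1), with each sgRNA pair as a block, over the 12828 genes that reached 1 TPM in 3 libraries or more. A gene was called when the adjusted p was below 0.05 and the absolute log2 change, or difference in change, was at least 1. Of the neuroendocrine markers, Calca was listed at 0 in the 6 libraries of 4711-18, and Insm1 reached 0.0657 TPM and Chga 0.156 TPM. Uchl1 was at 2.1 to 2.81 TPM, Syp at 4.63 to 6.50 TPM, Ncam1 at 6.90 to 14.5 TPM and Yap1, a marker of non-neuroendocrine SCLC, at 75.1 to 125 TPM. Calca, Insm1 and Chga were thus at or near 0 in a line derived as small cell lung cancer. They were also at or near 0 in 4716-11 and, but for Insm1 at 1.78 to 3.37 TPM, in 4711-1. Yap1 was at 92.3 to 116 TPM in 4711-1 and 63.2 to 86.0 TPM in 4716-11. Of 16 stromal and immune markers, 14 were under 1 TPM in all 6 libraries and 3 of these were listed at 0; the exceptions were Cd68 and Lyz2. Ptprc, the common leukocyte gene, did not exceed 0.0425 TPM.

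One pair of the line stood apart. In the Control library with sgPpia#3.2, 336 genes were at least 1 log2 unit above both other Control libraries of 4711-18 and 283 were at least 1 below both. The same counts were 33 and 4 for sgBgal and 9 and 15 for sgPpia#4.1. Counts that move with this pair are therefore also given without it where they are central to a result.

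Trp53 itself was low in Control cells and high in Restored cells. In Control cells it was at 8.41, 5.45 and 8.27 TPM with sgBgal, sgPpia#3.2 and sgPpia#4.1, the order used for all triplets below. The Restored libraries were at 206, 181 and 219 TPM, a log2 change of 4.62 ± 0.09 (SE; limma adjusted p = 8.81e-09). Cdkn1a rose from 154, 369 and 171 TPM to 3806, 2780.0 and 3386 TPM, by 3.94 ± 0.27 (adjusted p = 4.59e-06). Mdm2 rose from 88.8, 95.7 and 92.3 to 1884, 1332 and 1613 TPM, by 4.10 ± 0.15 (adjusted p = 1.63e-07). The Control and Restored libraries did not overlap for any of these genes. The difference of the change from the mean of the other lines was not called and was -0.17 ± 0.11 for Trp53 (adjusted p = 0.387), -0.21 ± 0.33 for Cdkn1a (adjusted p = 0.738) and 0.15 ± 0.19 for Mdm2 (adjusted p = 0.65). The Cdkn1a level with sgPpia#3.2 was the highest of the Control libraries and the lowest of the Restored ones.

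Ppia, the target of both Ppia guides, was at 2575, 658 and 1684 TPM in Control and 1551, 769 and 1191 TPM in Restored cells of 4711-18. It was lowest with sgPpia#3.2 in both states and intermediate with sgPpia#4.1, and the part of this level in any other result was not tested. Its change on restoration was -0.33 ± 0.16 (adjusted p = 0.1), which did not pass the test. Rb1, floxed and deleted in these cells, was still counted at 7.52, 9.44 and 6.54 TPM in Control cells and rose to 28.2, 30.8 and 25.4 TPM, by 1.73 ± 0.092 (adjusted p = 1.15e-06). Its rise was 1.76 in 4711-1 and 1.70 in 4716-11. Rbl2, also floxed, went from 3.35, 3.97 and 2.55 to 5.73, 6.66 and 4.15 TPM, a change of 0.60 ± 0.14 (adjusted p = 0.00624) and below the minimum for a call. A value per gene does not show which exons were read.

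In 4711-18, 1754 genes were called on restoration, 13.7% of those tested: 1210 rose (9.43%) and 544 fell (4.24%). In 4711-1, 1113 genes were called (8.68%; 5.71% rose and 2.96% fell) and in 4716-11 1390 (10.8%; 7.77% rose and 3.06% fell). The median change over all genes was 0.22 in 4711-18, 0.13 in 4711-1 and 0.15 in 4716-11, and rescaling the libraries by median-of-ratios factors, which lowered the median change in 4711-18 from 0.216 to -0.00221, left 763 rises and 815 falls, so that the share of rises went from 69.0% to 48.4%. The 3 paired changes had the same sign for 1727 of the 1754 genes called (98.5%), which the call rule itself makes likely, and for 68.0% of all genes. Of the genes called in 4711-18, 490 rose and 206 fell in all 3 lines.

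Most of the largest rises were of genes that rose in all lines. The largest was that of the gene model 1700007K13Rik, which the naming rule passes over. Sytl1, a synaptotagmin-like protein of vesicle traffic, went from 0.941, 1.27 and 0.927 to 67.2, 86.2 and 76.0 TPM, by 5.24 ± 0.15 (adjusted p = 6.48e-08). Inka2 went from 1.53, 1.71 and 1.97 to 100.3, 70.3 and 82.2 TPM. Both were low in every Control library and high in every Restored one. Atg9b, an autophagy lipid scramblase, rose by 4.73, Ptp4a3, a phosphatase, by 4.59, and Ak1, adenylate kinase 1, by 4.51. Tap1, a peptide transporter of antigen presentation, rose by 4.32, Ms4a10 by 4.28 and Cd80, a T cell costimulatory ligand, by 4.17. The differences of these 8 genes from the mean of the other lines were not called. The 10 largest rises by the naming rule also include Trp53, and Sprr1a, whose difference was called and is given with the genes of higher change.

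The largest falls were of mitotic genes and of a few others. Ccna2, Plk1, Ccnb2, Cdca3, Pimreg, Troap and Kif11, which act in mitosis, changed by -4.13 to -3.68. Ccl20, a chemokine, went from 74.5, 126 and 85.9 to 6.44, 3.31 and 4.84 TPM, a change of -4.04 ± 0.40. Its change was -4.03 in 4711-1 and -3.66 in 4716-11. Guca2a, the intestinal hormone guanylin, was at 162, 2.03 and 143 TPM in Control and 1.6, 1.4 and 2.21 TPM in Restored cells, so that the sgPpia#3.2 Control library was already at the level of the Restored ones. The largest fall on the log2 scale was that of Fabp1.

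The start sites of the genes that rose were searched for the letters of the p53 response element, and 4 stretches are shown because they are from known p53 targets that rose in all lines. The search covered 250 bases before to 50 after each start in RefSeq GRCm38.p6, on both strands since the element is palindromic. It took pairs of the p53 decamer with at most 13 bases between them and at most 1 of 20 bases off. Such a match was found for 15 of 389 genes called up in all 3 lines that had a promoter in the table (3.86%), for 19 of 947 called up in 4711-18 (2.01%) and for 95 of 10017 genes tested (0.948%). None was found for the 28 genes with a higher change or the 50 with a lower change than in both other lines. At the share of 0.948% over all genes, these sets are too small for that to show a lack of matches. A match is a description of the letters and not a site. Capitals mark the decamers, and each stretch runs 5′ to 3′ on the strand of the gene.
Cdkn1a, chr17:29090898-29090977, plus strand: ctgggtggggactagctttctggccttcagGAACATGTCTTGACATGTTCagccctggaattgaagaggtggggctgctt
Ccng1, chr11:40755432-40755511, minus strand: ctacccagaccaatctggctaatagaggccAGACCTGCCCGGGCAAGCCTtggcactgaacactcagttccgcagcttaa
Rps27l, chr9:66946266-66946345, plus strand: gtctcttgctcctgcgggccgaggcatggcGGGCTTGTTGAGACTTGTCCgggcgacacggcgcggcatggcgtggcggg
Bax, chr7:45467060-45467140, minus strand: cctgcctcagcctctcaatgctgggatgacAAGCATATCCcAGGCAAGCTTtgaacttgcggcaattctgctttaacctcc
In 4711-18, Ccng1, which encodes cyclin G1, rose from 78.1, 56.4 and 80.2 to 1010.4, 982 and 904 TPM, by 3.75 ± 0.11 (adjusted p = 7.16e-08). Rps27l, a ribosomal protein paralogue, rose by 1.29 and Bax, the pore-forming BCL2 family member, by 1.11. Their differences from the mean of the other lines were 0.034, -0.28 and -0.27, and none was called.

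The question of what 4711-18 did unlike the other lines was put to the difference between its response and the mean of theirs. That difference was called for 210 genes, 1.64% of those tested, of which 76 were higher (0.592%) and 134 lower (1.04%) in 4711-18. The count moved with single pairs: without the sgPpia#4.1 pair of 4711-18 the count was 111, and without its sgPpia#3.2 pair 493, of which 238 were higher and 255 lower. Without a minimum change 399 were higher and 409 lower. Against 4711-1 alone it was called for 233 genes (1.82%), 125 higher (0.974%) and 108 lower (0.842%), and against 4716-11 alone for 298 (2.32%), 88 higher (0.686%) and 210 lower (1.64%). For 98 genes (0.764%) the difference was called and also had the same sign and an adjusted p below 0.05 against each other line. Of these, 37 had a higher change (0.288%) and 61 a lower change (0.476%) in 4711-18. The count was 369 without the sgPpia#3.2 pair of 4711-18, 53 without its sgPpia#4.1 pair, 62 without its sgBgal pair, 63 without the sgBgal pair of 4711-1 and 47 to 54 without a pair of 4716-11. It was 58 without the block and 56 without the filter on low values. A gene of the 98 stayed unlike both other lines in 2 to 15 of the 15 alternative settings, with a median of 9.5. Of the 98, 19 had a mean under 1 TPM in every Control and Restored group of the other lines. Their change there could not be far from 0, so their difference restates their level in 4711-18, and where given below it is a description with no p. Among the 19 are Fabp1, Akr1c19, Dmbt1, Mep1a, Ppp1r14d, Paqr5, Muc13, Alpi, Vcan, Hs6st2 and the gene model 2610528A11Rik. Apart from the 19, 11 genes remained under every setting in which they were tested, which were Ano3, Ces2f, Inpp5d, Npr2 and Knstrn among the lower and Gzmd, U90926, Cercam, Dscaml1, Tmem86a and Fmo4 among the higher. Those of the genes listed that the naming rule did not choose, which are Paqr5, Npr2, Knstrn, Gzmd, Fmo4, U90926 and 2610528A11Rik, were named after their values were seen.

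**Figure D1:**
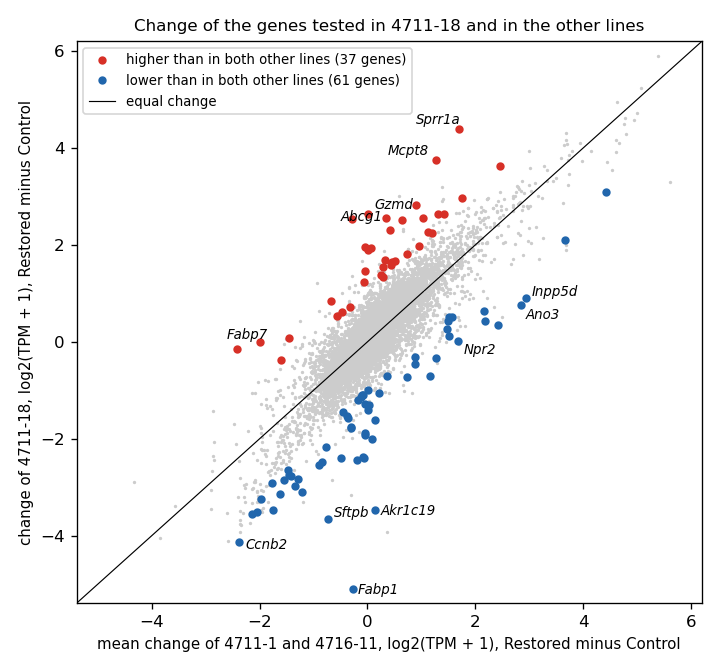
Change of each of 12828 genes (points) on restoration in 4711-18 (y axis) against the mean change of 4711-1 and 4716-11 (x axis), both in log2(TPM + 1), with a line of equal change. Red points are the 37 genes with a higher change and blue points the 61 genes with a lower change than in both other lines, and Fabp1 lies farthest below the line.

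Of the 61 genes with a lower change, 41 were called as falling in 4711-18, 25 of them in neither other line, and 20 were not called as falling. Of those 41, 14 had a group mean under 1 TPM in every group of the other lines, and of the 25 only 5 had a group mean of at least 5 TPM in another line. Fabp1, the fatty acid-binding protein of liver and intestine, was at 67.9, 7.35 and 68.6 TPM in Control cells of 4711-18 and listed at 0 in all 3 Restored libraries. In the 12 libraries of the other lines it lay between 0 and 1.16 TPM. Its change of -5.10 and difference of -4.82 ± 0.59 therefore depend on the pseudocount of 1. Akr1c19, an aldo-keto reductase, fell from 52.7, 16.7 and 40.3 to 1.89, 2 and 2.34 TPM, a change of -3.47, and lay between 0.0845 and 0.795 TPM in the other lines (difference -3.61 ± 0.32). In both genes the Control libraries of 4711-18 were above all other libraries, and sgPpia#3.2 was the lowest of the 3.

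Other genes that fell were also expressed in 4711-18 and little in the other lines. Sftpb, surfactant protein B of alveolar type 2 cells, went from 28.2, 45.1 and 14.1 to 0.649, 3.26 and 0.413 TPM, a difference of -2.94 ± 0.21 from the other lines (adjusted p = 0.000311). In 4716-11 it also fell, from 1.38, 2.12 and 2.11 to 0.253, 0.381 and 0.3 TPM. From so low a start only a small fall on log2(TPM + 1) is possible, so the difference in part restates the Control level of 4711-18. Dmbt1, a secreted protein of mucosal epithelia, went from 8.74, 2.05 and 5.76 to 0.127, 0.1 and 0.159 TPM (difference -2.30 ± 0.29). Mep1a, a brush border protease, went from 5.86, 3.45 and 7.27 to 0.631, 0.793 and 0.569 TPM (difference -1.88 ± 0.22), with no overlap between the states of 4711-18. Ppp1r14d, an inhibitor of protein phosphatase 1, went from 10.5, 1.4 and 9.15 to 0.492, 0 and 0.176 TPM, and its sgPpia#3.2 Control library was the lowest of that state. Paqr5, a membrane progestin receptor, went from 5.41, 6.61 and 4.95 to 1.28, 1.46 and 0.799 TPM (difference -1.75 ± 0.15). Itln1, which encodes an intelectin, and Muc13, a transmembrane mucin, were also singled out after their values were seen, with differences of -1.64 ± 0.23 and -1.47 ± 0.16. So were Alpi, an intestinal alkaline phosphatase, at 3.85, 1.72 and 2.37 TPM in Control and 0.725, 0.42 and 0.671 TPM in Restored cells (difference -1.03 ± 0.19), and Gpa33, an intestinal surface antigen, at 22.5, 10.2 and 25.5 and 10.5, 9.55 and 11.6 TPM (difference -1.46 ± 0.26). Gpa33 did not fall far enough in 4711-18 to be called, and its sgPpia#3.2 Control library lay within the Restored range. The differences of Alpi and Gpa33 were no longer called without the sgBgal or without the sgPpia#4.1 pair of 4711-18, that of Ppp1r14d without the sgPpia#4.1 pair, and those of Itln1, Muc13 and Alpi at a pseudocount of 0.1. Guca2a was called in the difference from the mean (-4.28 ± 1.04, adjusted p = 0.0437) but not against each line (adjusted p = 0.0686 and 0.0834), and leaving out any pair but sgPpia#3.2 of 4711-18, or leaving out the block, ended the call.

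**Figure D2:**
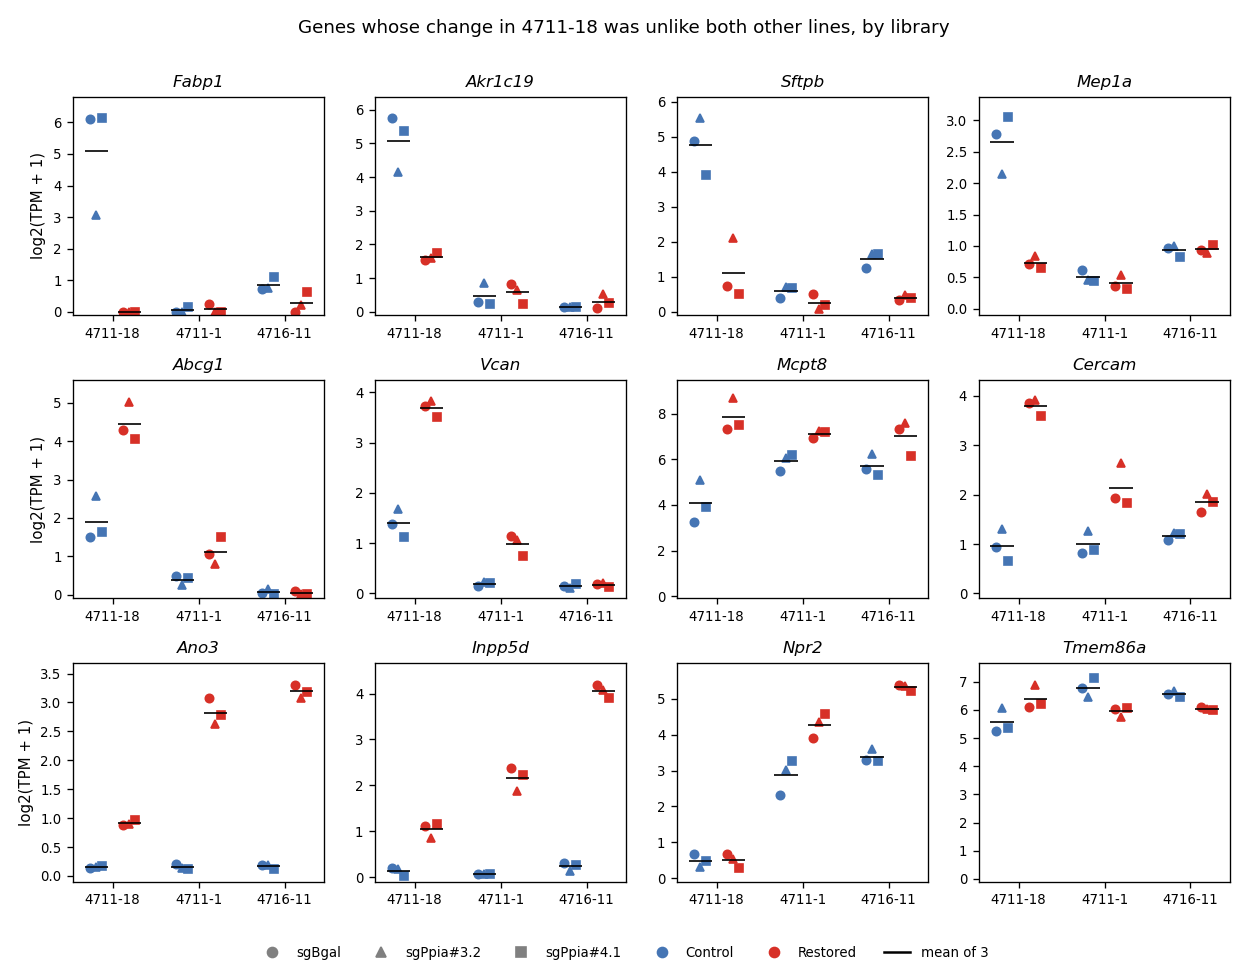
Levels of 12 genes in log2(TPM + 1) in each library (y axis, own range per panel) of 4711-18, 4711-1 and 4716-11, with Control in blue, Restored in red, 1 symbol per sgRNA and a bar at the mean of 3. Fabp1, Akr1c19, Sftpb and Mep1a fell from a level seen only in Control cells of 4711-18, Abcg1, Vcan, Mcpt8 and Cercam rose more in it, and Ano3, Inpp5d and Npr2 changed less. Tmem86a rose in 4711-18 and was lower after restoration in the other lines.

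Genes with a lower change also included some present in the other lines, or with a smaller fall there. Aqp1, a water channel, went from 16.0, 16.6 and 21.4 to 1.3, 4.13 and 2.94 TPM and changed by -0.81 in 4711-1 and -0.16 in 4716-11 (difference -1.91 ± 0.23, adjusted p = 0.0041). Ppp1r1b, which encodes DARPP-32, changed by -3.09 against -1.26 and -1.16. Fgfbp1, a carrier of fibroblast growth factors, was at 25.6, 17.8 and 27.5 TPM in Control and 3.66, 5.03 and 9.04 TPM in Restored cells of 4711-18 and at no more than 3.19 TPM elsewhere. Golt1a, of Golgi transport, changed by -0.71 in 4711-18, 0.80 in 4711-1 and 1.51 in 4716-11. Its fall in 4711-18 was below the minimum for a call and its rise was called in 4716-11, and the difference of -1.86 ± 0.24 was called (adjusted p = 0.00498). Cxcl2, a neutrophil chemokine, fell from 14.3, 20.5 and 11.8 to 1.88, 0.653 and 0.833 TPM, a difference of -1.63 ± 0.31. Of the 15 alternative settings, Cxcl2 was unlike both lines in 5, Ppp1r1b in 6 and Golt1a in 10. The differences of Ppp1r1b and Cxcl2 were no longer called without the sgPpia#4.1 pair of 4711-18.

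Another group with a lower change rose in the other lines and little or not at all in 4711-18. Of the 20 that were not called as falling, 13 were called as rising in both other lines. Ano3, an anoctamin, was at 0.1, 0.109 and 0.127 TPM in Control cells and reached only 0.85, 0.861 and 0.965 TPM in Restored cells of 4711-18, against 7.39, 5.15 and 5.86 TPM in 4711-1 and 8.92, 7.48 and 8.1 TPM in 4716-11. The 9 Control libraries were alike, at 0.092 to 0.16 TPM, and the difference in change was -2.08 ± 0.11 (adjusted p = 0.000153). Inpp5d, which encodes the lipid phosphatase SHIP1, reached 1.18, 0.793 and 1.24 TPM in 4711-18, 4.17, 2.68 and 3.65 TPM in 4711-1 and 17.2, 15.8 and 14 TPM in 4716-11 (difference -2.04 ± 0.15, adjusted p = 0.000311). Ces2f, a carboxylesterase, reached 0.438, 0.238 and 0.235 TPM in 4711-18, 2.23, 1.37 and 1.73 TPM in 4711-1 and 11.6, 9.81 and 9.71 TPM in 4716-11. For these 3 genes no Restored library of 4711-18 came up to any Restored library of the other lines. Pm20d1, an enzyme of N-acyl amino acids, reached 0.204, 0.552 and 0.411 TPM, with a difference of -1.75 ± 0.20. Npr2, the receptor of C-type natriuretic peptide, stayed at 0.583, 0.459 and 0.21 TPM after 0.584, 0.249 and 0.387 TPM, while it rose from 3.98, 7.17 and 8.61 to 14, 19.6 and 23.0 TPM in 4711-1 and from 8.75, 11.2 and 8.72 to 41.2, 39.9 and 36.5 TPM in 4716-11 (difference -1.67 ± 0.13). Npr2 was under 1 TPM in every library of 4711-18, so it passed the filter only through the other lines. A pseudocount of 1 holds its change in 4711-18 near 0, and the difference in part restates its level. Robo3, an axon guidance receptor, rose in all lines, to 4.3, 4.61 and 3.28 TPM in 4711-18 against 8.69, 11.0 and 7.7 TPM in 4711-1 and 26.9, 20.1 and 14.6 TPM in 4716-11 (difference -1.55 ± 0.20). Nectin4, an adhesion protein, and Klhdc7a were called in the difference from the mean (-1.79 and -1.67) but were not distinguished from 4711-1 (adjusted p = 0.138 and 0.274).

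Of the 37 genes with a higher change, 29 were called as rising in 4711-18, 18 of them in neither other line and 8 in both. Abcg1, a sterol and phospholipid exporter, rose from 1.83, 4.97 and 2.09 to 18.5, 31.7 and 15.6 TPM, by 2.55 ± 0.12, and changed by 0.73 in 4711-1 and -0.027 in 4716-11 (difference 2.203 ± 0.14, adjusted p = 0.000222). Vcan, the matrix proteoglycan versican, rose from 1.6, 2.22 and 1.16 to 12.3, 13.1 and 10.5 TPM and reached 1.2, 1.09 and 0.68 TPM in 4711-1 and 0.135, 0.155 and 0.086 TPM in 4716-11 (difference 1.89 ± 0.13). Every Restored library of 4711-18 was above every other library of the series for both genes. Mcpt8, a serine protease known from basophils, rose from 8.39, 32.8 and 14.1 to 161, 406 and 180.3 TPM (difference 2.49 ± 0.21, adjusted p = 0.000661). Here the Control libraries of 4711-18 were below those of the other lines, at 38.6 to 74.6 TPM, and the Restored libraries overlapped. Gzmd and Gzme, granzymes of a family of near-identical genes whose reads may be split between members, were singled out after their values were seen. Gzme rose from 137, 404 and 176 to 502, 1914 and 589 TPM, highest with sgPpia#3.2 in both states, and changed by -0.22 and 0.13 in the other lines (difference 1.99 ± 0.18, adjusted p = 0.000882). The difference for Gzmd was 2.63 ± 0.26, and without the block that of Gzme was no longer called. Ptprc and Cd3e, markers of the leukocytes in which granzymes are best known, were at or near 0 in these libraries.

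Sprr1a, a cornified envelope precursor, rose from 149.6, 711 and 185 to 5491, 6532 and 5139.8 TPM, by 4.39 ± 0.33, against 1.07 and 2.32 in the other lines (difference 2.70 ± 0.40, adjusted p = 0.00848). Its Control libraries were lower than the 824 to 2416 TPM of the other lines, and its Restored libraries overlapped theirs. Cercam, a cell adhesion protein, went from similar Control levels in the 3 lines to 13.5, 14.1 and 11.0 TPM in 4711-18, 2.8, 5.2 and 2.58 TPM in 4711-1 and 2.15, 3.07 and 2.63 TPM in 4716-11 (difference 1.91 ± 0.13, adjusted p = 0.000222). Cd109, a cell surface protein, rose to 7.7, 8.21 and 6.41 TPM in 4711-18 and reached at most 2.47 TPM elsewhere (difference 1.51 ± 0.13). Dscaml1, an adhesion protein of neurons, rose from 0.988, 0.684 and 0.613 to 9, 9.08 and 9.1 TPM (difference 1.88 ± 0.11), and its level in 4711-1 was higher in both states. Igfbp3, a carrier of insulin-like growth factors and a known p53 target, rose from 59.2, 157 and 70.3 to 246, 377 and 240.2 TPM, by 1.69, against -0.034 and 0.67. Ndnf, a secreted neurotrophic factor, rose by 1.93 with the highest Restored level in sgPpia#3.2, and Nxph3 and Hs6st2, a neurexophilin and a heparan sulfate sulfotransferase, had differences of 1.34 and 1.30. Sprr1a, Ndnf and Hs6st2 were unlike both other lines in 5 of the 15 alternative settings and Igfbp3 in 8. The differences of Ndnf and Hs6st2 were no longer called without the sgPpia#4.1 pair of 4711-18, and those of Cd109 and Nxph3 at a pseudocount of 0.1.

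Another 4 genes with a higher change were not called in 4711-18 and fell in both other lines. Fabp7, the brain fatty acid-binding protein, was at 0.843, 0.973 and 1.14 TPM in Control and 0.523, 1.55 and 0.499 TPM in Restored cells of 4711-18, whereas it fell from 78.6, 57.8 and 127 to 7.02, 12.1 and 52.7 TPM in 4711-1 and from 39.5, 41.6 and 27.7 to 8.57, 4.09 and 3.65 TPM in 4716-11. Ppbp, a platelet chemokine, and Duoxa1, a maturation factor of a dual oxidase, showed the same arrangement, with differences of 1.99 ± 0.21 and 1.53 ± 0.23. All 3 were low in 4711-18 from the start. With a pseudocount of 1 they had little room to fall there, so their differences in part restate that level. The difference of Fabp7 was 2.28 ± 0.41 and was no longer called without the sgBgal pair of 4711-18, without its sgPpia#4.1 pair, without the block or at a pseudocount of 0.1. The fourth gene, Fmo4, a flavin monooxygenase, was at 1.89, 2.05 and 1.4 TPM in Control cells of 4711-18 and kept 1.09, 1.3 and 0.985 TPM, while it fell to at most 1.01 TPM in the other lines (difference 1.21 ± 0.15). Tmem86a, a lysoplasmalogenase, moved in opposite directions. It rose from 36.8, 66.5 and 40.3 to 68.2, 116 and 73.0 TPM in 4711-18, by 0.84 (adjusted p = 6.99e-05), and changed by -0.83 in 4711-1 and -0.51 in 4716-11, each below the minimum for a call. The difference of 1.51 ± 0.11 was called (adjusted p = 0.000311). No gene was called as rising in 4711-18 and falling in another line, and 2 genes, G0s2 and Serpinb1a, were called as falling in it and rising in another.

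Mitotic genes, which encode cyclins, kinases and kinetochore and spindle proteins, fell in all lines, with the lowest median in 4711-18. All 32 genes of the list were called as falling in each line, with a median change of -3.09 in 4711-18, -2.33 in 4711-1 and -1.60 in 4716-11. All 32 had a difference below 0, with a median of -1.14 where the median over all genes was 0.072, and all 32 had a lower mean level in Restored cells of 4711-18 than in those of either other line. Of all genes, 39.4% had a difference below 0 and 23.8% a lower Restored mean than both other lines. In lists of the study given below that fell in every line, the difference was below 0 for 211 of 227 (Module 3) and 51 of 56 genes (Module 2). Among lists that rose it was above 0 for 171 of 240 genes of Module 1 and 11 of 23 other p53 targets. A difference below 0 was thus not particular to the mitotic genes or to the sterol genes given below. The difference was called for 21 of the 32, where 1.04% of all genes were called lower. Over the settings the median of the difference stayed between -0.92 and -1.40, but the count was 27 without the sgPpia#3.2 pair of 4711-18, 6 without its sgBgal pair, 5 without its sgPpia#4.1 pair, 11 to 13 without a pair of 4716-11, 11 without the filter and 4 without the block. Only Ccnb2, Birc5, Mybl2 and Nek2 were distinguished from each other line, which held in 7, 6, 14 and 13 of the 15 alternative settings. The list medians by pair were -3.57, -2.60 and -3.21 in 4711-18, and the sgPpia#3.2 value was not below the lowest pair of 4711-1, at -2.60.

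Ccnb2, cyclin B2, fell from 174, 84.4 and 163 to 6.18, 5.72 and 8.43 TPM in 4711-18, a change of -4.13, and to 29.0, 29.9 and 14.5 TPM in 4711-1 and 47.0, 43.7 and 39.1 TPM in 4716-11 (difference -1.76 ± 0.23, adjusted p = 0.00516). No Restored library of 4711-18 overlapped those of the other lines. Mybl2, the B-Myb factor that drives mitotic genes, went from 86.9, 31.5 and 82.7 to 9.26, 4.14 and 11.5 TPM (difference -1.55 ± 0.12, adjusted p = 0.000393). Nusap1 and Plk1, of the spindle, had differences of -1.54 and -1.51 but were not distinguished from 4711-1 (adjusted p = 0.0599 and 0.107). Outside the list, Spc24, a kinetochore subunit, went from 50.6, 16.9 and 52.6 to 1.79, 1.91 and 3.54 TPM (difference -1.72 ± 0.30), and Knstrn, a spindle protein, from 76.3, 58.6 and 70.1 to 6, 6.24 and 8.25 TPM (difference -1.54 ± 0.17, adjusted p = 0.00305). Without the sgPpia#4.1 pair of 4711-18 the differences of Nusap1, Plk1 and Spc24 were no longer called, without the block those of Mybl2 and Plk1, and those of Plk1 also without its sgBgal pair or without the sgBgal or sgPpia#3.2 pair of 4716-11. In all of these genes the sgPpia#3.2 Control library held the lowest Control value: over the mitosis list its median difference from the mean of the other Control libraries was -1.22 log2 units, and -0.50 in Restored cells.

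Genes of DNA replication moved less. In 4711-18, 3 of 35 fell (Mcm10, Tk1 and E2f2) and 0 rose, in 4711-1 1 rose and in 4716-11 2 rose, and the medians were -0.18, 0.098 and 0.32. Over all genes 4.24% fell and 9.43% rose in 4711-18. The median of 4711-18 was -0.068 without its sgBgal pair, -0.34 without its sgPpia#3.2 pair, -0.089 without its sgPpia#4.1 pair and -0.44 after rescaling, and by pair it was -0.35, 0.14 and -0.44. All 35 differences were below 0, with a median of -0.47, against 39.4% and 0.072 over all genes. The difference was called lower, as for 1.04% of all genes, for Cdc6, which loads the replicative helicase, and Ccne1, cyclin E1, both also distinguished from each other line, Cdc6 in 4 and Ccne1 in 5 of the 15 alternative settings. Cdc6 went from 23.0, 7.46 and 19.5 to 11.2, 5.73 and 10.9 TPM in 4711-18, a change of -0.70, and changed by 0.098 in 4711-1 and 0.64 in 4716-11. Ccne1 went from 34.3, 20.1 and 34.6 to 44.1, 34.5 and 48.1 TPM, a change of 0.52 that was below the minimum for a call, and rose by 1.31 and 1.73 in the other lines. Ccne2, its paralogue, differed by -0.93 ± 0.14 (adjusted p = 0.00957), short of the minimum. Without the sgPpia#3.2 pair of 4711-18 the difference was called for 4 of the 35. Cdc6 was no longer called without the sgBgal pair of 4711-18 or without the block, and Ccne1 without the sgBgal or sgPpia#4.1 pair of 4711-18, sgPpia#4.1 of 4711-1 or sgPpia#3.2 of 4716-11.

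**Figure D3:**
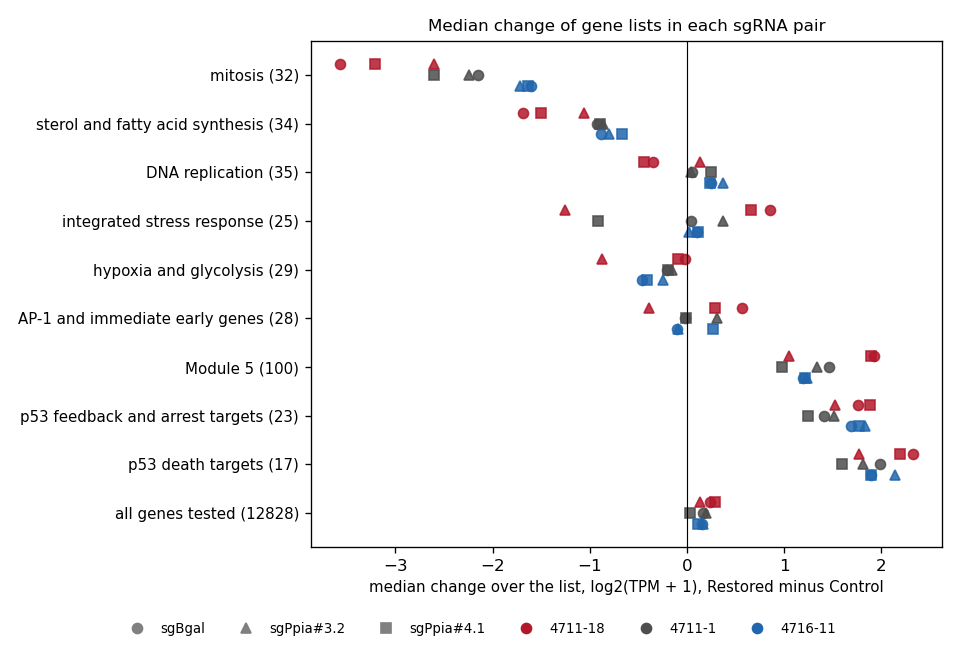
Median change of each gene list (rows, number of genes tested in brackets) in log2(TPM + 1) on restoration (x axis), 1 symbol for each sgRNA pair, with 4711-18 in red, 4711-1 in grey and 4716-11 in blue. The sgBgal and sgPpia#4.1 pairs of 4711-18 lie beyond the other lines for mitosis and for sterol and fatty acid synthesis, and its sgPpia#3.2 pair lies apart for the integrated stress response, hypoxia and glycolysis, and AP-1 lists.

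Genes of sterol and fatty acid synthesis, which are driven by the SREBP factors, fell in part in every line. Of 34, 26 were called as falling in 4711-18, 16 in 4711-1 and 12 in 4716-11, where 4.24%, 2.96% and 3.06% of all genes were, with medians of -1.33, -0.91 and -0.79. All 34 differences were below 0, with a median of -0.48 (-0.28 without the sgBgal pair of 4711-18 and -0.72 without its sgPpia#3.2 pair), and the difference was called lower for 3, where 1.04% of all genes were, and of these Cyp51 and Insig1 are described here. Cyp51, lanosterol demethylase, fell from 182, 97.4 and 150.3 to 17.5, 21.6 and 20.4 TPM, a change of -2.75 against -1.56 and -1.36 (difference -1.29 ± 0.24, adjusted p = 0.0183), and was distinguished from each line, which held in 3 of the 15 alternative settings. Insig1, which restrains SREBP processing, went from 365, 94.5 and 267 to 32.9, 28.1 and 38.3 TPM (difference -1.28 ± 0.32). Fdps, of the mevalonate pathway, fell from 750.3, 572 and 754 to 125, 122 and 126 TPM, and its difference of -0.99 ± 0.14 missed the minimum with an adjusted p of 0.0074. Cyp51 was no longer called without the sgBgal or sgPpia#4.1 pair of 4711-18, and Insig1 without any pair of the series but sgPpia#3.2 of 4711-18, nor without the block. With the sgPpia#3.2 pair left out the difference was called for 7 of the 34, without the sgPpia#4.1 pair for 1 and without the sgBgal pair for 0.

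Of the lists the study had chosen, Modules 1 to 6 and the signatures of Type D and Type V cells were drawn from other libraries of these lines and of Type V lines not analysed here, so their directions are not independent evidence. In Module 5, 88 of 100 genes rose in 4711-18 and 62 in each of the other lines, with medians of 1.60, 1.26 and 1.20. The difference was above 0 for 85 of the 100, with a median of 0.33, against 60.6% and 0.072 over all genes. This median was 0.14 without the sgBgal pair of 4711-18, 0.62 without its sgPpia#3.2 pair and 0.203 without its sgPpia#4.1 pair. The difference was called higher for 4, where 0.592% of all genes were. Without the sgPpia#3.2 pair it was called for 20, without the sgBgal pair for 1 and without the sgPpia#4.1 pair for 0. Those 4 were Tnfrsf23, Procr, Lpin2 and Matn4. Tnfrsf23, a decoy receptor of the death ligand TRAIL, rose from 13.6, 33.9 and 13.3 to 184, 120.3 and 139 TPM, by 2.92 against 1.47 and 1.28 (difference 1.54 ± 0.35, adjusted p = 0.0359). Procr, the protein C receptor, rose from 155, 209 and 162 to 1273, 947 and 1049 TPM and was distinguished from each line (difference 1.20 ± 0.20), as was Lpin2, a phosphatidate phosphatase, at 30.3, 38.5 and 26.8 TPM in Control and 123, 83.6 and 89.3 TPM in Restored cells (difference 1.16 ± 0.19). Matn4, a matrix protein, rose from 0.0937, 0.339 and 0.0561 to 5.91, 5.87 and 4.47 TPM and was distinguished from 4711-1 (adjusted p = 0.0312) but not from 4716-11 (adjusted p = 0.0605). The distinction from each line held in 4 of the 15 alternative settings for Procr and in 8 for Lpin2. Restored levels of Procr and Lpin2 in 4711-18 were above those of all other libraries of the series. Tnfrsf22, a paralogue of Tnfrsf23 outside the module that was named after its values were seen, rose from 14.2, 23.7 and 11.9 to 59.6, 44.4 and 42.2 TPM (difference 1.25 ± 0.22). Without the sgPpia#4.1 pair of 4711-18 none of these 5 genes was called in the difference, without its sgBgal pair only Procr was, and Tnfrsf23 was called without sgPpia#3.2 of 4711-18 but not without any other pair of the series.

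Over all genes, 9.43% rose and 4.24% fell in 4711-18, 5.71% and 2.96% in 4711-1 and 7.77% and 3.06% in 4716-11, and the difference was called higher for 0.592% and lower for 1.04%. Module 1, which rose in all lines, had 214 of 240 genes called in 4711-18, 194 in 4711-1 and 204 in 4716-11, and 4 differences called higher and 5 lower. In Module 6, 59 of 73 rose in 4711-18, 48 in 4711-1 and 51 in 4716-11, with 3 differences higher, among them Cd109 and Notch3. Notch3, a Notch receptor, rose from 0.0149, 0.0271 and 0.0955 to 3.61, 4.85 and 3.78 TPM (difference 1.15 ± 0.19, adjusted p = 0.0109). Module 3, whose genes fell, had 169 of 227 called in 4711-18, 127 in 4711-1 and 120 in 4716-11, and 39 differences called lower (13 without the sgBgal pair, 9 without the sgPpia#4.1 pair and 78 without the sgPpia#3.2 pair). In Module 2, 32 of 56 fell in 4711-18, 16 in 4711-1 and 14 in 4716-11, with 2 differences lower, one of them Gcat, an enzyme of threonine breakdown, with a difference of -1.17 (not called without the sgBgal or sgPpia#4.1 pair). In Module 4, 45 of 75 fell in 4711-18, 37 and 31 in the other lines, with 2 differences lower. Without the sgPpia#3.2 pair of 4711-18 the differences called were 16 higher in Module 1, 8 higher in Module 6, 9 lower in Module 2 and 12 lower in Module 4. Without its sgPpia#4.1 pair they were 2, 2, 1 and 0, and without its sgBgal pair 3, 3, 0 and 1. The Type D signature had 8 of 107 genes rising and 11 falling in 4711-18, and the Type V signature 7 of 40 rising and 1 falling. Without the sgPpia#3.2 pair the Type D signature had 13 rising and 2 differences called higher and 4 lower, where 1 and 1 were called with it, and 5 were rising without either of the other pairs. Of all 12828 genes without the sgPpia#3.2 pair, 1623 rose and the difference was called higher for 238 and lower for 255. Without the sgBgal pair 1133 rose, and without the sgPpia#4.1 pair 1029.

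Most of the known p53 targets listed rose in each line, and few of their differences were called. Over all genes 9.43% rose in 4711-18, 5.71% in 4711-1 and 7.77% in 4716-11. Of 23 feedback and arrest targets, 16 rose in 4711-18, 14 in 4711-1 and 15 in 4716-11, with medians of 1.66, 1.43 and 1.80 and 0 differences called (3 higher without the sgPpia#3.2 pair of 4711-18). Of 17 death targets, 13, 14 and 14 rose, and only Tnfrsf23 was called in the difference. Of 23 other targets, 17 rose in each line, with 0 differences called. Perp, a desmosome protein, rose from 73.6, 81.7 and 82.5 to 559, 699 and 616 TPM, and its difference of 0.74 ± 0.11 had an adjusted p of 0.00805 but missed the minimum, as did those of Phlda3, an inhibitor of AKT (0.74 ± 0.13), and Btg2, an antiproliferative factor (0.73 ± 0.17). Bbc3, which encodes the proapoptotic protein PUMA, went from 20.9, 45.9 and 24.1 to 109, 88.5 and 106 TPM. Rprm, reprimo, was below 1 TPM in every library of 4711-18 and rose by 1.05 in 4711-1 and 1.27 in 4716-11. It passed the filter only through those lines, so its difference of -0.93 ± 0.21, below the minimum, is a description.

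Few differences were called in the other lists, to be read beside the 9.43% of all genes that rose and the 4.24% that fell in 4711-18. For the BCL2 family and caspases 8 of 24 rose and 2 fell in 4711-18, for the Notch pathway 5 of 16 rose and Notch3 was called in the difference, for the interferon response 4 of 24 rose and Tap2, a peptide transporter, was called in the difference (1.27 ± 0.24), and for NRF2 targets 7 of 25 rose. Taldo1, of the pentose phosphate pathway, and Nqo1, a quinone reductase, both NRF2 targets, differed by 0.87 ± 0.11 (adjusted p = 0.0051) and 0.93 ± 0.14 (adjusted p = 0.00972), both short of the minimum. In the lysosome and autophagy list 9 of 35 rose in 4711-18, 5 in 4711-1 and 6 in 4716-11, where 9.43%, 5.71% and 7.77% of all genes rose, and 30 of 35 differences were above 0, with a median of 0.24 and none called, against 60.6% and 0.072 over all genes. Without the sgPpia#3.2 pair of 4711-18, 14 of the 35 rose, 1 difference was called and the median was 0.39, and without its sgPpia#4.1 pair 6 rose. Ribosomal protein genes had a median of -0.58 in 4711-18, -0.33 in 4711-1 and -0.41 in 4716-11, and 44 of 46 differences were below 0 with none called. In the squamous and keratinocyte list 8 of 18 rose and 2 fell, and Sprr1a was called in the difference. In the epithelial list 2 of 27 rose and 7 fell, and in the mesenchymal list 4 of 20 rose and 1 fell. Cldn4 and Epcam, epithelial genes of tight junctions and adhesion, were called in the difference (1.66 ± 0.42 and -1.34 ± 0.29) but not against each line. Of 28 chemokines and cytokines 6 rose and 9 fell, and Cxcl3, a neutrophil chemokine, fell less in 4711-18 than in the other lines (difference 1.44 ± 0.34, adjusted p = 0.0398), though not against 4711-1 alone (adjusted p = 0.102). Of 16 cyclophilin genes 1, Ppih, fell. Of 18 neuroendocrine and neuronal genes none was called in 4711-18, and Resp18, of secretory granules, was called in the difference (-1.26 ± 0.19), as it rose in 4716-11. Without the sgPpia#3.2 pair of 4711-18 the difference was called for 3 Type V signature, 2 NRF2 target, 3 mesenchymal, 5 epithelial, 5 squamous and keratinocyte and 4 chemokine and cytokine genes. Of all 12828 genes it was then called for 493, against 210 with that pair, and 1623 rose, against 1210. The calls of Tap2, Cldn4, Epcam and Cxcl3 were lost without the sgBgal or sgPpia#4.1 pair of 4711-18. In the stromal and immune list only Cd68 and Lyz2 were tested, and Cd68, a lysosomal protein of macrophages, rose in every line, from 3.35, 7.13 and 2.43 to 27.7, 24.9 and 21.3 TPM in 4711-18.

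Within 4711-18 the pairs did not respond alike. The change with sgPpia#3.2 lay at least 1 log2 unit above both other pairs for 226 genes and at least 1 below both for 524. With sgBgal these counts were 38 and 59 and with sgPpia#4.1 26 and 20, and the most for a pair of the other lines was 79 above, with sgPpia#3.2 in 4711-1, and 147 below, with sgPpia#4.1 in 4711-1. The change on restoration of the integrated stress response list differed widely between the pairs. This is the program of the factor ATF4. The median change of this list was 0.86 in the sgBgal pair, -1.26 for sgPpia#3.2 and 0.66 for sgPpia#4.1, and between -0.92 and 0.37 in the pairs of the other lines. Over this list the median difference of the sgPpia#3.2 library from the other libraries was 1.02 in Control cells and -0.84 in Restored cells. Over 25 genes the response as a whole gave 3 rises and 3 falls, and 9 rises and 1 fall without the sgPpia#3.2 pair, where the difference from the other lines was called for 3 genes instead of 0. Of all 12828 genes 1210 rose and 544 fell, and without that pair 1623 rose and 686 fell. The difference was then called for 493 of all genes instead of 210.

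Trib3, a pseudokinase induced by ATF4, was at 24.9, 259.6 and 28.2 TPM in Control and 146, 58.6 and 111 TPM in Restored cells of 4711-18, so it rose in 2 pairs and fell in the sgPpia#3.2 pair. Slc7a11, the cystine transporter, was at 12.8, 48.6 and 11.2 and 65.0, 13.4 and 37.7 TPM, and Chac1, which degrades glutathione, at 47.7, 158 and 40.4 and 139, 41.9 and 116 TPM. Mmp13, a collagenase, was at 6.3, 124 and 8.98 and 126, 55.7 and 74.7 TPM, and Angptl6 at 3.23, 21.9 and 3.35 and 15, 6.75 and 15.1 TPM. In all 5 genes the sgPpia#3.2 library was the highest of the Control libraries and the lowest of the Restored ones. With 1 pair for each sgRNA this has no replicate within the line and was not tested. In 4711-1 it was the sgPpia#4.1 pair in which Trib3 fell, from 86.5 to 20.01 TPM.

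**Figure D4:**
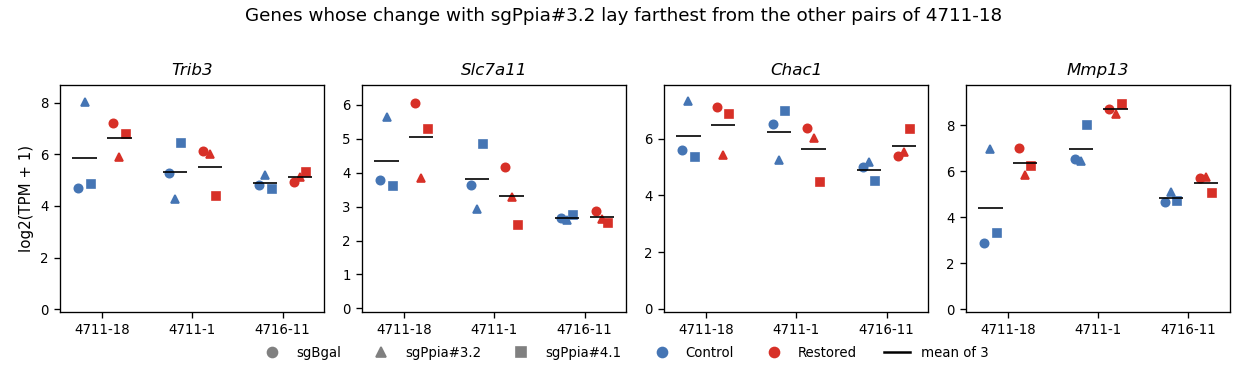
Levels in log2(TPM + 1) of Trib3, Slc7a11, Chac1 and Mmp13 (y axis) in each library of the 3 lines, with Control in blue, Restored in red, 1 symbol per sgRNA and a bar at the mean of 3. In 4711-18 the triangles of sgPpia#3.2 are the highest of the Control points and the lowest of the Restored points.

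Other lists shifted with the same library. The sgPpia#3.2 Control library of 4711-18 lay a median of 0.83 above the other Control libraries over hypoxia and glycolysis genes, and their change was -0.87 with sgPpia#3.2 against -0.015 with sgBgal and -0.090 with sgPpia#4.1. Without that pair 4 of the 29 rose, against 1 with it (Hilpda). Of all 12828 genes, 1623 rose without that pair and 1210 with it. For AP-1 and immediate early genes, which are switched on within minutes of a stimulus, the changes were 0.57, -0.39 and 0.29, and the difference of the sgPpia#3.2 library from the others was -0.94 in Restored cells. Dusp1, a phosphatase of MAP kinases in this list, reached 2039, 376 and 1574 TPM in Restored cells after 291, 126 and 213 TPM, and its difference of 1.20 ± 0.29 was called only with all pairs of the series or without sgPpia#3.2 of 4711-18. Without that pair the difference was called for 4 genes of the list, against 1 with it, and over all genes for 493 against 210. Module 5 changed by 1.93 with sgBgal, 1.05 with sgPpia#3.2 and 1.89 with sgPpia#4.1. With sgPpia#3.2 its difference from the other libraries was 0.48 in Control and -0.25 in Restored cells. The p53 feedback and arrest targets changed by 1.77, 1.52 and 1.89 in the same order. Culture state, the sgRNA and the library cannot be told apart for a single pair.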

How the data were processed

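RNA from 18 cultures of 3 cell lines was sequenced, and the authors deposited 1 table of TPM for 25239 genes, scaled to the same sum in each library. The labels name bcl2fastq 2.17 and HISAT2, whereas the methods of the study name Kallisto or HISAT2 for its RNA sequencing without saying which made this table. The counter and annotation are not given in the sources used here. TPM are not counts, so log2(TPM + 1) was fitted with limma 3.58.1 (R 4.3.3) over the 12828 genes that reached 1 TPM in 3 or more libraries, with 9 pair blocks and 1 response for each line (6 residual degrees of freedom, 9.25 after moderation) and Benjamini-Hochberg adjustment over all genes. Pairs share a line and an sgRNA, and the deviations of paired libraries correlated at 0.155 to 0.487. A call needed an adjusted p below 0.05 and an absolute log2 value of at least 1. Fits were tested on simulated data. The members and gene lists were chosen with earlier results of these data known.

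Genes were named by rule: the 10 largest rises and falls in 4711-18, the 15 most positive and most negative differences among genes distinguished from both other lines, up to 4 members per list by difference and up to 5 per sgRNA by distance from the other pairs, without gene models and near-identical families. Any others are said to be chosen after their values were seen, or are named to account for a count of 5 or fewer. Settings tried besides were no block, rescaling by median-of-ratios factors, stricter and looser filters, a pseudocount of 0.1, no minimum change, other variance settings, 4711-18 alone, and each pair left out. Counts of mitotic and other list genes under these settings were added after the data were seen. A few genes that these rules or lists take in are not reported here. Absolute depth, and with it counting error, is unknown. Sequences are from RefSeq GRCm38.p6.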

Additional observations from a re-analysis of the deposited data

Results flagged for a closer look

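The 76 genes below changed by another amount in 4711-18 than in the mean of 4711-1 and 4716-11, by the limma test of the difference itself, and values are that difference in log2(TPM + 1), 4711-18 minus the mean of the others, over 3 pairs in each line. Every gene called in the difference and named above is given, so the set was chosen by this test.

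Higher in 4711-18, and past an adjusted p of 0.05 against each other line, were U90926 (2.81), Sprr1a (2.69), Gzmd (2.62), Mcpt8 (2.49), Fabp7 (2.28), Abcg1 (2.203), Gzme (1.995), Ppbp (1.99), Cercam (1.91), Vcan (1.89), Dscaml1 (1.89), Ndnf (1.86), Duoxa1 (1.53), Cd109 (1.51), Tmem86a (1.51), Igfbp3 (1.37), Nxph3 (1.34), Hs6st2 (1.30), Tnfrsf22 (1.25), Fmo4 (1.21), Procr (1.21), Lpin2 (1.16) and Notch3 (1.15). Lower on the same terms were Fabp1 (-4.82), Akr1c19 (-3.61), Sftpb (-2.94), 2610528A11Rik (-2.32), Dmbt1 (-2.30), Ppp1r14d (-2.25), Ano3 (-2.08), Ces2f (-2.07), Inpp5d (-2.04), Aqp1 (-1.91), Mep1a (-1.88), Ppp1r1b (-1.88), Golt1a (-1.86), Fgfbp1 (-1.84), Ccnb2 (-1.76), Pm20d1 (-1.75), Paqr5 (-1.75), Spc24 (-1.72), Npr2 (-1.67), Itln1 (-1.64), Cxcl2 (-1.63), Mybl2 (-1.55), Robo3 (-1.55), Knstrn (-1.54), Muc13 (-1.47), Gpa33 (-1.46), Birc5 (-1.42), Cyp51 (-1.29), Nek2 (-1.26), Gcat (-1.17), Cdc6 (-1.06), Alpi (-1.02) and Ccne1 (-1.001). Called in the difference from the mean but not past the threshold against each other line were Guca2a (-4.28), Serpinb1a (-1.88), Nectin4 (-1.79), G0s2 (-1.68), Klhdc7a (-1.67), Troap (-1.58), Cdca3 (-1.57), Nusap1 (-1.54), Plk1 (-1.51), Pimreg (-1.44), Ccna2 (-1.41), Epcam (-1.34), Insig1 (-1.28), Resp18 (-1.26), Matn4 (1.14), Dusp1 (1.20), Tap2 (1.26), Cxcl3 (1.44), Tnfrsf23 (1.54) and Cldn4 (1.66). Of the genes not described with their difference above, Birc5, Ccna2, Cdca3, Pimreg, Serpinb1a and Troap were no longer called without the sgPpia#4.1 pair of 4711-18, and all of these but Birc5 also without its sgBgal pair. Without the block Birc5, Ccna2, G0s2, Nek2 and Troap were no longer called. The calls of Ccna2 and Serpinb1a were also lost with each pair of 4716-11 left out in turn. Fabp1, Akr1c19, Dmbt1, Mep1a, Ppp1r14d, Paqr5, Muc13, Alpi, 2610528A11Rik, Vcan and Hs6st2 had means under 1 TPM in every group of the other lines, so their differences restate their level in 4711-18. Fabp7, Ppbp and Duoxa1 were low in 4711-18 from the start, and Npr2 was under 1 TPM in every library of that line. The differences of these genes in part restate that low level. That of Sftpb in part restates its Control level in 4711-18, since it was low in 4716-11. Being past the threshold against each line held in no more than 5 of the alternative settings for Cyp51, Gcat, Cdc6, Alpi, Gpa33, Procr, Ccne1, Hs6st2, Fabp7, Ndnf, Tnfrsf22, Spc24, Sprr1a, Cxcl2 and Notch3, and in 6 or 7 for Birc5, Ppp1r14d, Ppp1r1b, Duoxa1, Ccnb2 and Robo3. No explanation was tested for any of these.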

How the results depend on the processing

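In the alternatives run, no response or difference of a named gene changed sign, but 38 of 900 list medians did, in 17 of the list results none of them above 0.272 in size before the change of setting. Rescaling turned the split of the difference from 4711-1 from 125 higher and 108 lower to 103 and 127. Of 1246 differences of named genes under alternatives, 1067 kept their side of the threshold, 167 lost the call and 12 gained it, and of 478 responses 476 kept theirs. Without a minimum change, the genes called were 7539 in 4711-18, 5561 in 4711-1 and 6200 in 4716-11, and 808 in the difference from the mean, 593 against 4711-1 and 700 against 4716-11. Without the block, 58 genes were unlike both other lines (54 of the 98), the difference was called for 153 genes against 4711-1 (233 with it) and 187 against 4716-11 (298 with it), and 4 mitotic genes were called lower (21 with it); against the mean it was called for 145, and the response of 4711-18 for 1739 genes. Without the filter these were 56 unlike both (all among the 98), 195 against 4716-11 and 11 mitotic genes. With 1 pair left out, the response of 4711-18 was called for 1564 to 2309 genes, the difference from the mean for 111 to 493, that against 4711-1 for 130 to 507 and that against 4716-11 for 140 to 683, 47 to 369 genes were unlike both, and 5 to 27 mitotic genes were called lower. The highest of these values came without sgPpia#3.2 of 4711-18, and of the 369 genes 94 were among the 98. The cause was not tested. Of 900 list medians, 60 moved by more than the spread between pairs. At a pseudocount of 0.1, 45 of the 98 genes were still unlike both lines among 75. With 3 pairs in each line and no counts, counting error in low genes is unknown.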
